A study of Homo sapiens with 12 samples.

Results

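The response to 4 h of tumour necrosis factor (TNF) under SIK3 knockdown was measured in 4 of the 12 RNA-seq libraries of the series. They are the 2 libraries whose count files carry the words SIK3 and 4h, set against the 2 whose files carry SIK3 and CLM, here taken as cells without TNF. All 12 libraries come from PANC-1, a human pancreatic ductal adenocarcinoma cell line, reverse transfected for 72 h with an siRNA against salt-inducible kinase 3 (SIK3, named AS1 in the design text) or with a control siRNA (Scr1 in the file names, siCtrl1 in the titles). Recombinant human TNF was given at 100 ng/mL, and the 6 pairs of libraries are, by file name, SIK3 siRNA and control siRNA in CLM, at 30 min and at 4 h. A single siRNA to SIK3 and a single cell line were used, so nothing here separates the SIK3 siRNA from its other targets.

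The file names and the sample titles do not give the same conditions. Both name the same condition for 4 of the 12 libraries, among them the 2 SIK3 siRNA 4 h libraries, and they differ for the other 8. The 2 libraries used here as SIK3 siRNA in CLM are titled SIK3 siRNA with TNF for 30 min, and the libraries titled as unstimulated SIK3 siRNA cells carry Scr1 and 30min in their file names. The conditions below follow the file names throughout. The level of SIK3 itself was 16.3 to 24.0 CPM, a unit in which each library's reads are divided by its TMM-adjusted total, in the 6 libraries with SIK3 in the file name, with a median of 20.3, against 34.3 to 68.7 CPM and a median of 51.4 in the 6 with Scr1, and these ranges did not overlap. Grouped by title, the ranges were 16.3 to 68.7 CPM in the 6 libraries titled SIK3 siRNA and 17.3 to 65.2 CPM in the 6 titled control siRNA. SIK3 did not pass the test between the 2 SIK3 siRNA conditions, with 18.3 and 22.8 CPM at 4 h, against 16.3 and 22.4 CPM in CLM (log2 fold change 0.07, standard error (SE) 0.12, edgeR adjusted p 0.735). In each pair of values the library with the letter B (replicate 1) is given first and that with the letter C (replicate 2) second.

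The 12 libraries held 13535825 to 22699756 reads in genes, and 16695 of 60669 genes passed the filter on low counts. Both SIK3 siRNA 4 h libraries stood apart in the reads that fell in no annotated gene: 16.5% and 17.1% of all their reads, against 8.35% to 10.5% in the other 10. As a share of uniquely mapped reads it was 18.7% in library B at 4 h, against 11.997% in its CLM partner, and 20.9% in library C at 4 h, against 17.4% in its CLM partner. Reads mapping to several places were 5.42% and 10.2% at 4 h, against 5.53% and 45.3% in CLM. The part of these shares in the results below was not tested. The 9 markers of the line, which are epithelial genes and VIM (vimentin, a mesenchymal filament protein), summed to 8595 and 8151 CPM at 4 h, against 7454 and 7179 CPM in CLM. Of that sum VIM held 2134 and 2320.1 CPM at 4 h, against 1412 and 1398 CPM in CLM. Of 10 leukocyte markers, 9 were below the filter, and the 10 summed to 5.31 and 4.52 CPM at 4 h, against 2.84 and 3.26 CPM in CLM. The 1 tested, the integrin gene ITGAM, was called higher (log2 0.57, edgeR adjusted p 0.0482), and lost the call when any 1 of the 4 libraries was left out (adjusted p 0.0783 to 0.346). The part of leukocyte markers in the results below was not tested. None of 8 acinar and endocrine markers passed the filter.

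**Figure D1:**
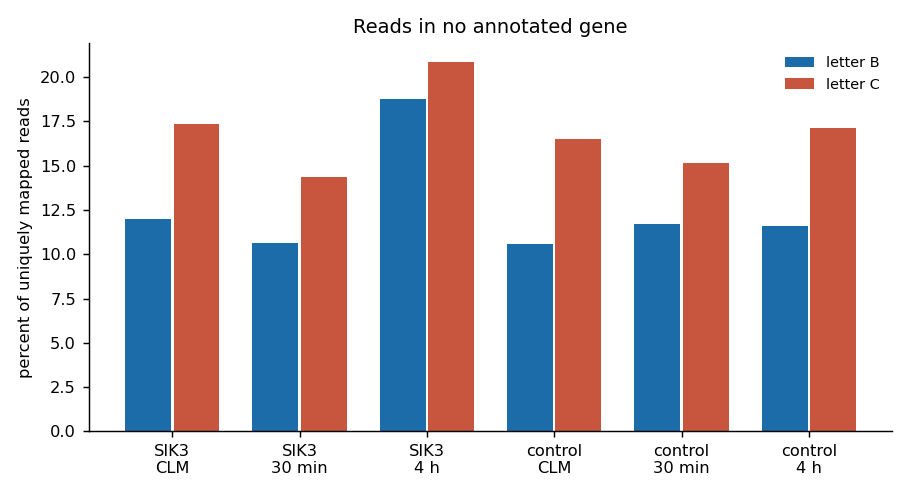
Percent of uniquely mapped reads that fell in no annotated gene, by condition (file name) and replicate letter, 1 bar per library. Both SIK3 siRNA 4 h libraries, at 18.7% and 20.9%, stand above every other library of the same letter.

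TNF is a cytokine of inflammation that binds the receptor TNFR1 on epithelial and tumour cells. The receptor assembles a complex of TRADD, RIPK1, TRAF2 and the ubiquitin ligases BIRC2 and BIRC3, which releases NF-κB from its inhibitors in the cytoplasm. NF-κB then switches on genes for chemokines, adhesion receptors and survival proteins, and also for its own inhibitors, which end the signal. SIK3 belongs to the salt-inducible kinases, a branch of the AMPK-related kinases activated by LKB1, which keep the CRTC coactivators of CREB and the class IIa histone deacetylases in the cytoplasm.

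Of the 105 genes named here with a promoter window, 19 held a match to the κB spelling used below in any of their windows. Some genes have several windows, which gives them more places for a match. CXCL8, TNF, ICAM1, IRF1 and SOD2, which rose, held none. The 5 printed were chosen because they rose and hold a match. Each stretch below holds 60 bases of the strand of the gene, taken from the RefSeq promoter windows (GRCh38.p14, from 250 bases before to 50 after the gene's start), with every match to GGGNNTTTC or its reverse complement GAAANNCCC in capitals, letters that the κB element shares.
SELE (chr1:169734129-169734188, minus strand): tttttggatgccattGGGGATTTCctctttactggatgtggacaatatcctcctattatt
CCL20 (chr2:227813749-227813808, plus strand): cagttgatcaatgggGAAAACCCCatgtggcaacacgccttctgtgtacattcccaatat
CXCL3 (chr4:74038724-74038783, minus strand): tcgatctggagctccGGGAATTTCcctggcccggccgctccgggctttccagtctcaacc
TNFAIP3 (chr6:137867178-137867237, plus strand): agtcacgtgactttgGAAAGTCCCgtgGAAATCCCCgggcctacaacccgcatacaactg
NFKBIA (chr14:35404785-35404844, minus strand): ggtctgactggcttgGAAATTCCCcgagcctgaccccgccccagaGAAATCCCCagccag
SELE, CCL20 and CXCL3 held 1 match in the whole window, TNFAIP3 2 and NFKBIA 3, and the match nearest to the start of the gene began 50 to 94 bases before it. Over all 27305 genes with a window, 5.78% held a match on either strand in any of their windows, and the shares below are counted likewise. The share was 6.57% of the 11342 tested genes with a window, 11.5% of the 1421 that rose, 15.6% of the 263 that rose at least 2-fold, and 4.14% of the 1233 that fell. The spelling was chosen from 11, of which 10 had been tried before it and their shares seen, so the shares are a description of these windows, and a match is not a measured site.

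Across all genes tested, 2080 were higher and 1562 lower at 4 h than in CLM with SIK3 siRNA at an adjusted p under 0.05 (edgeR quasi-likelihood test with Benjamini-Hochberg adjustment), which is 21.8% of the genes. The higher calls were 12.5% and the lower calls 9.36%. These shares are the background for the counts of members below that come from this comparison in the main fit. Counts from the control siRNA response, the interaction or another setting have their own background. The rises were the larger changes: 579 genes rose at least 2-fold and 70 at least 8-fold, against 77 and 3 that fell as far. The median size was 1.49-fold among the genes that rose and 1.26-fold among those that fell. Protein-coding genes made up 80.5% of the rises, 96.1% of the falls and 77.5% of the genes tested. With library totals in place of TMM scaling the split was 1809 higher and 2282 lower. Without the replicate letter in the model, 610 genes were called higher and 128 lower. Left out in turn, CLM replicate 1 and CLM replicate 2 brought the calls to 2329 and 2010. The libraries of the 2 conditions did not overlap in 44.1% of the genes tested.

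The inhibitors and feedback genes of NF-κB rose together: 12 of the 15 tested were higher and 1 lower. Their median log2 fold change was 0.78, against -0.001 over all genes tested. The lower gene, named after its value was seen, was OTUD7B, a deubiquitinase that restrains the noncanonical branch. NFKBIA, which encodes the inhibitor IκBα, stood at 554 and 567 CPM at 4 h, against 166 and 147 CPM in CLM, a 3.60-fold rise (log2 1.85, SE 0.06, adjusted p 7.35e-15). TNFAIP3, which encodes the ubiquitin-editing enzyme A20, had 105.4 and 125 CPM at 4 h, against 19.6 and 22.6 CPM in CLM, 5.46-fold higher (adjusted p 1.72e-14). Both 4 h libraries lay far above both CLM libraries for each gene. NFKBIZ, encoding the nuclear regulator IκBζ, had 112 and 123 CPM at 4 h, against 40.2 and 37.1 CPM in CLM. CYLD, a deubiquitinase that dampens the receptor complex, rose 1.94-fold, with 153 and 151 CPM at 4 h, against 85.7 and 71.3 CPM in CLM. OTUD7B had 79.8 and 82.9 CPM at 4 h, against 89.0 and 101 CPM in CLM, and this call was lost when CLM replicate 2 (adjusted p 0.146) or 4 h replicate 2 (adjusted p 0.0841) was left out.

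Levels at 30 min are given without a test. NFKBIZ was at 119 and 142 CPM at 30 min, so its 4 h level was below its 30 min level in both libraries, and CXCL3, with 9.83 and 10.3 CPM at 30 min, had the same order. NFKBIA had 314 and 288 CPM and TNFAIP3 45.9 and 64.4 CPM at 30 min, between their CLM and 4 h levels. ICAM1 had 235 and 311 CPM and BIRC3 688 and 616 CPM at 30 min, below CLM, and both stood highest at 4 h.

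**Figure D2:**
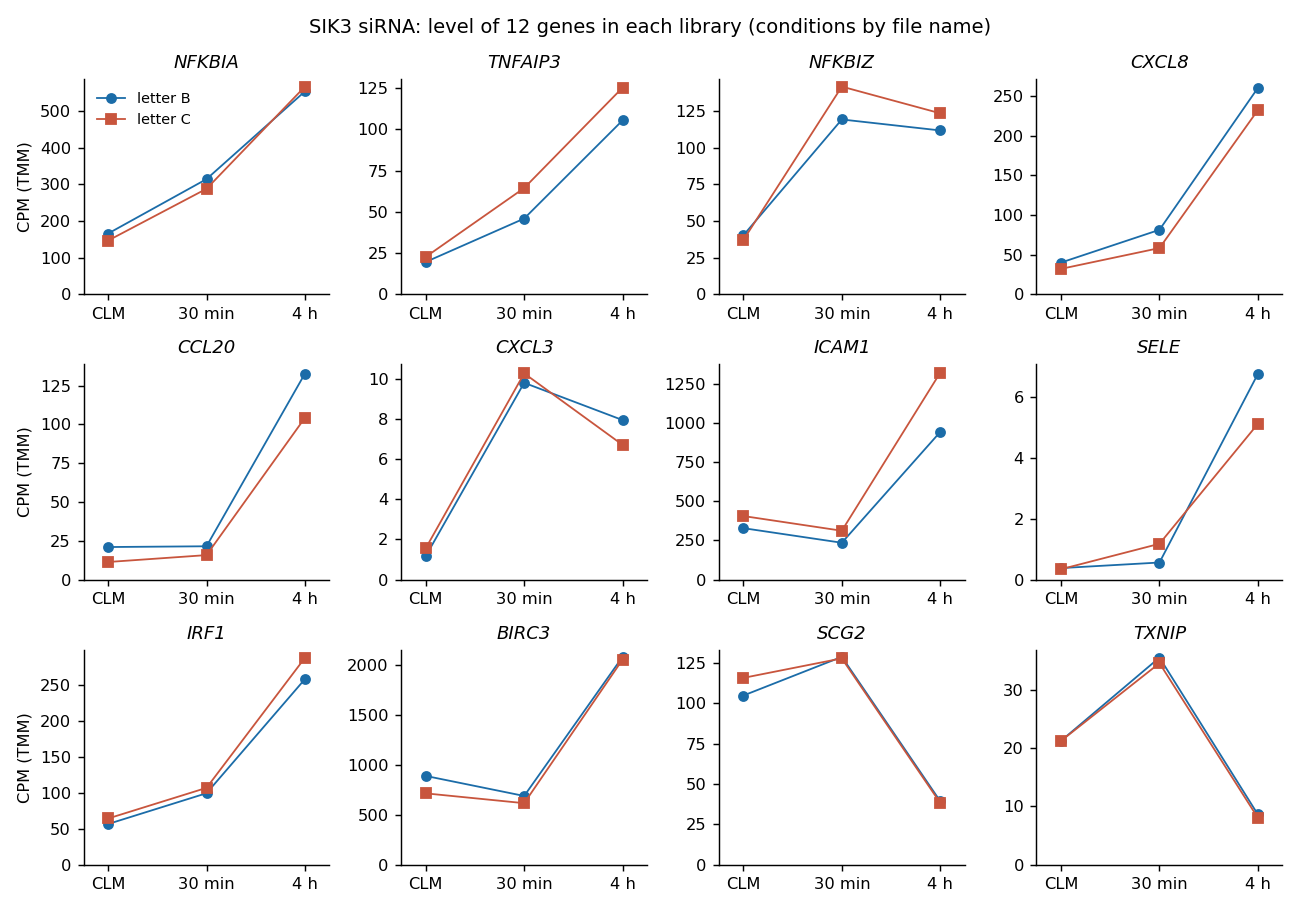
TMM-scaled CPM of 12 genes in the 6 SIK3 siRNA libraries, in CLM, at 30 min and at 4 h of TNF (by file name), 1 line per replicate letter. Both letters follow the same course: NFKBIZ and CXCL3 are highest at 30 min, NFKBIA, TNFAIP3, CXCL8 and ICAM1 at 4 h, and SCG2 and TXNIP are lowest at 4 h.

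Of 15 NF-κB subunits and kinases tested, 10 were higher and none lower, with a median log2 fold change of 0.46. NFKB2, the precursor of p52, had 296 and 333 CPM at 4 h, against 138 and 157 CPM in CLM. NFKB1, the precursor of p50, had 358 and 352 CPM at 4 h, against 199.9 and 197 CPM in CLM. The subunit gene REL rose 1.93-fold, and MAP3K8, the kinase that links NF-κB to ERK, 2.35-fold. In the receptor complex 5 of 16 genes were higher and 1 lower, and the receptor gene was not among the rises. BIRC3 had 2078 and 2050.3 CPM at 4 h, against 888 and 714 CPM in CLM. BIRC2 rose 1.93-fold, TRAF1 2.89-fold and CFLAR, an inhibitor of caspase-8, 2.054-fold. The lower gene, named after its value was seen, was TNFRSF1A, which encodes TNFR1 itself. It had 28.5 and 31.9 CPM at 4 h, against 38.8 and 46.0 CPM in CLM (log2 -0.49, edgeR adjusted p 3.6e-05).

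Chemokine genes rose with no fall among them. Of 6 neutrophil-attracting CXC chemokines tested, 4 were higher, and the list had a median log2 fold change of 1.45. CXCL8 (interleukin-8) had 261 and 232 CPM at 4 h, against 40.0 and 32.0 CPM in CLM, 6.92-fold higher (adjusted p 5.53e-15). CXCL1 had 102 and 138 CPM at 4 h, against 56.2 and 63.9 CPM in CLM, a 1.98-fold rise. CXCL2 rose 3.04-fold and CXCL3 5.57-fold, with CXCL3 at 7.97 and 6.73 CPM at 4 h, against 1.17 and 1.56 CPM in CLM. CXCL1, CXCL2 and CXCL3 are close copies, and reads that fit several of them could be split or lost. Of 10 other chemokines, 5 were higher. CCL20, the ligand of CCR6, had 133 and 104 CPM at 4 h, against 20.9 and 11.3 CPM in CLM, 7.42-fold higher. CCL2, which draws monocytes, had 795 and 1186 CPM at 4 h, against 354 and 468 CPM in CLM. CX3CL1 rose 3.51-fold and CCL5, a T cell chemokine, 2.39-fold.

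Cytokines and growth factors of inflammation rose in 13 of 19 cases and fell in none. TNF itself had 3.05 and 6.06 CPM at 4 h, against 0.585 and 0.680 CPM in CLM, 6.86-fold higher from 46 and 110 reads at 4 h and 14 and 10 reads in CLM. CSF1, the macrophage growth factor, had 635 and 1052 CPM at 4 h, against 330.4 and 489 CPM in CLM. EBI3 (a subunit of interleukin-27 and interleukin-35) rose 2.69-fold and LTB (lymphotoxin beta) 3.03-fold, each to under 7 CPM. Among 10 adhesion receptors 7 were higher and 1 lower, with 3 or 4 higher when any 1 library other than 4 h replicate 1 was left out. ICAM1, the ligand of leukocyte integrins, had 941 and 1319.5 CPM at 4 h, against 328 and 405 CPM in CLM, 3.06-fold higher. SELE (E-selectin) had 6.77 and 5.13 CPM at 4 h, against 0.376 and 0.340 CPM in CLM, 16.4-fold higher from 102 and 93 reads at 4 h and 9 and 5 reads in CLM. CD44, the hyaluronan receptor, rose 1.30-fold. F11R, a tight junction protein, was the lower gene, at 75.3 and 74.9 CPM at 4 h, against 86.9 and 99.2 CPM in CLM (adjusted p 0.00131), and without CLM replicate 2 its adjusted p was 0.0562.

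Secreted and matrix genes were mixed. Of 11 acute-phase and complement genes 6 rose, among them PTX3 (pentraxin 3) with 239.6 and 209 CPM at 4 h, against 75.9 and 64.8 CPM in CLM, and complement C3 with 3.52 and 6.12 CPM at 4 h, against 1.38 and 2.04 CPM in CLM. The complement inhibitor CD55 was the 1 gene that fell, to 44.0 and 45.8 CPM at 4 h, against 58.5 and 57.3 CPM in CLM. Of 15 matrix remodelling genes, 6 rose and 5 fell, with 3 falls when any 1 library other than 4 h replicate 1 was left out. The urokinase gene PLAU had 794 and 739 CPM at 4 h, against 347 and 318 CPM in CLM. The secreted protease ADAMTS1 fell to 38.2 and 40.3 CPM at 4 h, against 70.2 and 72.4 CPM in CLM.

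Genes of interferon signalling divided. Of 16 IRF, STAT and SOCS genes, 6 rose and 3 fell. IRF1, an activator of interferon-responsive promoters, had 258 and 287 CPM at 4 h, against 56.6 and 64.3 CPM in CLM, 4.51-fold higher (adjusted p 1.96e-16). SOCS1 rose 4.59-fold, SOCS3 1.89-fold and STAT5A 2.07-fold, and SOCS1 and SOCS3 encode feedback inhibitors of cytokine receptors. Those that fell included STAT2 and STAT6, named after their values were seen, with log2 fold changes of -0.28 and -0.25. Without CLM replicate 2 the calls of STAT2 (adjusted p 0.0622) and STAT6 (0.307) were lost, and STAT6 also lost its call without 4 h replicate 1 (0.059). Of 31 interferon-stimulated genes tested, 10 rose and 12 fell, and the median log2 fold change was -0.13. Without CLM replicate 2 the falls numbered 5. The guanylate-binding proteins led the rises, with GBP1 at 53.6 and 54.9 CPM at 4 h, against 19.2 and 17.7 CPM in CLM, and GBP2 and GBP4 2.93-fold higher each. IFIT2, an antiviral RNA-binding protein, rose 1.62-fold. The falls, again named after their values were seen, included IFI6 with 92.7 and 72.8 CPM at 4 h, against 141 and 147 CPM in CLM, OAS1 with 7.57 and 9.32 CPM at 4 h, against 13.9 and 16.1 CPM in CLM, and MX1 with 75.0 and 67.0 CPM at 4 h, against 95.1 and 99.9 CPM in CLM. The products of IFI6, OAS1 and MX1 act against viruses.

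Antigen presentation moved by less: 9 of 20 genes rose and none fell, with a median log2 fold change of 0.30. TAP1, a subunit of the peptide transporter, had 192 and 187 CPM at 4 h, against 129 and 111 CPM in CLM, and its partner TAP2 rose by the same 1.58-fold. HLA-B rose 1.36-fold, with 106 and 107 CPM at 4 h, against 80.7 and 75.8 CPM in CLM. The HLA class I genes are close copies, and reads shared between them are uncertain.

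Survival genes were higher in 11 of 12 cases. SOD2, the manganese superoxide dismutase of mitochondria, had 1660.5 and 1729 CPM at 4 h, against 686 and 571 CPM in CLM, and BCL2A1, an antiapoptotic BCL2 protein, had 126 and 104 CPM at 4 h, against 56.1 and 43.1 CPM in CLM. The 1 gene of this list that missed the threshold was BCL2, named after its value was seen (log2 -1.06, adjusted p 0.125). Death receptors and proapoptotic genes rose as well, in 11 of 22 cases with 1 fall, which was lost when either CLM replicate or 4 h replicate 1 was left out. BBC3 (PUMA) had 16.7 and 19.7 CPM at 4 h, against 4.68 and 5.17 CPM in CLM, 3.76-fold higher. TNFRSF10B, the death receptor 5 gene, rose 1.43-fold and TNFRSF10D, a decoy receptor, 2.20-fold. Of 16 p53 targets 6 rose and 2 fell, with the cell cycle inhibitor CDKN1A at 64.7 and 74.2 CPM at 4 h, against 29.8 and 34.9 CPM in CLM.

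Of 26 immediate early genes, 18 were higher at 4 h and none lower. MAFF, a small MAF factor, rose 3.02-fold. JUN had 494 and 476 CPM at 4 h, against 258 and 259 CPM in CLM, and JUNB had 51.1 and 57.3 CPM at 4 h, against 19.8 and 18.4 CPM in CLM. ATF3 had 128 and 128 CPM at 4 h, against 63.3 and 61.6 CPM in CLM, and its 30 min levels of 161 and 155 CPM were higher again. Of 17 MAPK phosphatases and ERK feedback genes, 6 rose and 2 fell, and both falls were lost without CLM replicate 1 or 4 h replicate 1. DUSP5, a nuclear ERK phosphatase, rose 1.66-fold and SPRY4, a Sprouty inhibitor of the ERK cascade, 1.93-fold.

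In the list of SIK3, LKB1 and related kinases, 1 of 14 was higher and 5 were lower. There were fewer falls when any 1 library other than 4 h replicate 1 was left out. SIK1 fell to 13.7 and 14.4 CPM at 4 h, against 19.2 and 21.9 CPM in CLM (log2 -0.55, SE 0.11, adjusted p 0.000759). SIK2 had 49.9 and 58.3 CPM at 4 h, against 49.5 and 62.4 CPM in CLM, and did not pass the test (log2 -0.05, adjusted p 0.714). NUAK2, known as a target of NF-κB in human cells, rose 1.72-fold, while its relative NUAK1 fell to 158 and 156 CPM at 4 h, against 203.5 and 217 CPM in CLM. PRKAA2, the α2 subunit of AMPK, fell to 15.001 and 16.2 CPM at 4 h, against 24.8 and 23.5 CPM in CLM. Of 16 CREB and CRTC targets and factors, 2 rose and 5 fell, with 1 rise when any 1 library other than 4 h replicate 2 was left out. DIO2, which encodes the type 2 deiodinase, fell to 2.32 and 2.54 CPM at 4 h, against 8.32 and 9.05 CPM in CLM, and the phosphodiesterase gene PDE4D fell to 10.6 and 9.92 CPM at 4 h, against 21.4 and 18.5 CPM in CLM. The orphan nuclear receptor gene NR4A1 rose to 13.7 and 16.8 CPM at 4 h, against 5.77 and 8.50 CPM in CLM, below its 29.1 and 37.0 CPM at 30 min. Of 7 class IIa histone deacetylase and MEF2 genes, HDAC9 and MEF2A rose and HDAC7 fell, each by under 0.3 on the log2 scale. HDAC9 and MEF2A each lost the call when any 1 of the 4 libraries was left out (adjusted p 0.0691 to 0.287 for HDAC9 and 0.0779 to 0.371 for MEF2A), and HDAC7 without CLM replicate 2 (adjusted p 0.176).

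Cell cycle genes rose broadly. Of 28 mitosis genes 26 were higher and none lower, with a median log2 fold change of 0.58, and of 26 DNA replication genes 22 were higher and none lower, with a median of 0.48. Without the replicate letter 13 and 9 were called higher. ANLN (anillin, which organises the cleavage furrow) had 212 and 239 CPM at 4 h, against 105.4 and 105.8 CPM in CLM, 2.13-fold higher (adjusted p 9.42e-12). CEP55, needed for abscission, had 41.2 and 43.6 CPM at 4 h, against 21.9 and 22.9 CPM in CLM, and HMMR, a spindle protein, had 21.8 and 19.8 CPM at 4 h, against 11.9 and 11.97 CPM in CLM. AURKA and CENPA, named after their values were seen, missed the threshold (log2 0.17 and 0.32, adjusted p 0.0928 and 0.0583). The replication helicase gene MCM7 rose 1.61-fold and RRM2, a subunit of ribonucleotide reductase, had 78.9 and 94.4 CPM at 4 h, against 56.2 and 48.6 CPM in CLM. These levels were low beside the control siRNA libraries: the mitosis genes summed to 1667 and 1852 CPM at 4 h and 1094 and 1193 CPM in CLM with SIK3 siRNA, against 5728 to 6830 CPM in the 6 control siRNA libraries. In bulk samples fewer cells of a kind, such as cells in mitosis, and less RNA per cell cannot be told apart.

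**Figure D3:**
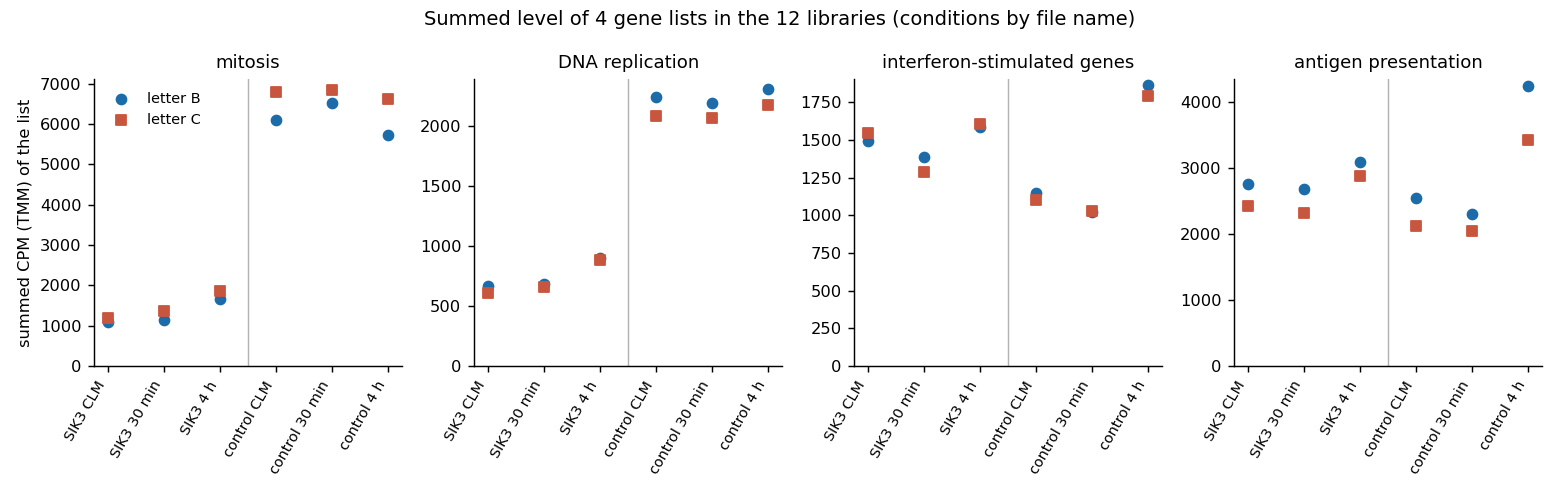
Summed TMM-scaled CPM of 4 gene lists in each of the 12 libraries, by condition (file name) and replicate letter. With SIK3 siRNA the mitosis sum is 1667 and 1852 at 4 h and 1094 and 1193 in CLM, while the 6 control siRNA libraries lie at 5728 to 6830.

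The 15 largest rises among protein-coding genes with a mean of at least 2 CPM in the higher condition were CDH16, GARIN4, SELE, CSKMT, SLC7A2, CCL20, H4C1, CXCL8, TNF, RND1, ID2, EFNA1, RASSF5, C1QTNF1 and CXCL3. CDH16, GARIN4, SELE, SLC7A2, H4C1, TNF, RND1 and C1QTNF1 averaged under 1 CPM in CLM, so the size of their folds rests on few reads there. CDH16, a kidney cadherin (GRCh38 chr16:66908122-66918984, minus strand), had 52 and 54 reads at 4 h, against 1 and 0 reads in CLM, and the ratio of summed CPM was 123 with a 95% counting interval from 21.7 to 4915. GARIN4, a gene known from testis (chr1:212624474-212626778, plus strand), had 7.23 and 7.72 CPM at 4 h, against 0.209 and 0.204 CPM in CLM. Both lie just past the end of a gene on the same strand that also rose: CDH16 begins 2695 bases beyond RRAD (37.5 and 29.8 CPM at 4 h, against 20.8 and 17.5 CPM in CLM), and GARIN4 begins 3697 bases beyond ATF3. The part of reads from beyond those ends was not tested. CSKMT, a methyltransferase of mitochondrial citrate synthase, had 12.7 and 11.7 CPM at 4 h, against 1.09 and 1.02 CPM in CLM. SLC7A2, a transporter of arginine and lysine, rose 7.87-fold and rested on 8 and 2 reads in CLM. H4C1 is a histone H4 gene with many near copies and rested on 11 and 1 reads in CLM. ID2, an inhibitor of basic helix-loop-helix factors, had 15.5 and 17.9 CPM at 4 h, against 2.76 and 2.31 CPM in CLM. EFNA1 (ephrin A1, a ligand of EPH receptors) had 54.4 and 52.8 CPM at 4 h, against 8.90 and 9.25 CPM in CLM.

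The 15 largest falls were DIO2, OSR1, NRROS, SCG2, SPTSSB, TXNIP, ADGRF1, SNAI2, CCDC8, FGFBP1, HGF, RAB27B, GRHL3, SLC2A10 and LONRF2, with log2 fold changes from -1.82 to -1.11. SCG2, the secretory granule protein secretogranin II, fell to 39.4 and 38.4 CPM at 4 h, against 104.8 and 116 CPM in CLM (log2 -1.50, SE 0.08, adjusted p 2.15e-11). TXNIP, which binds thioredoxin and restrains glucose uptake, fell to 8.63 and 8.05 CPM at 4 h, against 21.2 and 21.2 CPM in CLM. RAB27B, a GTPase of exosome and granule secretion, fell to 24.3 and 26.0 CPM at 4 h, against 62.1 and 57.3 CPM in CLM. SNAI2 (Slug), a repressor in epithelial to mesenchymal transition, fell to 5.64 and 4.69 CPM at 4 h, against 10.9 and 14.9 CPM in CLM, while its relative SNAI1 rose to 7.23 and 10.1 CPM at 4 h, against 2.13 and 4.63 CPM in CLM. SLC2A10 and ADGRF1, both at about 1 CPM at 4 h, lost the call when a library was left out: SLC2A10 without CLM replicate 1 or either 4 h replicate (adjusted p up to 0.173), and ADGRF1 without CLM replicate 2 (adjusted p 0.069).

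With control siRNA the same times by file name gave 3928 calls (23.5% of genes tested). They were 1883 higher (11.3%) and 2045 lower (12.2%), the background for the counts of members with control siRNA. The libraries used here as control siRNA at 4 h are titled control siRNA with TNF for 30 min. The 2 responses differed, by the interaction term of the same fit, for 1996 genes, 12% of those tested: 1075 (6.44%) had a more positive and 921 (5.52%) a more negative change with SIK3 siRNA. Without the replicate letter in the model the interaction called 261 genes, and without SIK3 CLM replicate 2 or control 4 h replicate 1 it called 1254 and 1283. Over the 8 libraries of the interaction alone, 689 genes were more positive and 987 more negative. Library totals gave 1575 higher and 3323 lower genes with control siRNA, and without control 4 h replicate 1 that response held 2618 calls. The 2 responses share no library, but they share the fit and its spread.

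The interaction was more often negative than positive in most lists of NF-κB and inflammatory genes, and not in all. It was negative for 3 of 6 CXC chemokines, 6 of 10 other chemokines, 6 of 19 cytokines and 6 of 10 adhesion receptors, with none positive. With SIK3 siRNA the CXC chemokines summed to 404 and 419 CPM at 4 h, against 109 and 112 CPM in CLM. With control siRNA they summed to 418 and 335 CPM at 4 h, against 62.5 and 63.3 CPM in CLM. The 4 h sums of the other chemokines, cytokines and adhesion receptors were lower with SIK3 siRNA than with control siRNA. Of 26 immediate early genes 7 were positive and 2 negative, and of 12 survival genes 4 were positive and 5 negative. Of the 15 feedback genes, 9 had a negative and 1 a positive interaction, the positive one being NFKBIZ (0.38, adjusted p 0.0252), whose call was lost when any 1 of 5 libraries was left out. TRAF1 had 104 and 99.2 CPM with SIK3 siRNA at 4 h and 35.8 and 34.6 CPM in CLM, against 319.5 and 304 CPM with control siRNA at 4 h and 53.5 and 51.9 CPM in CLM (interaction log2 -1.04, adjusted p 1.2e-07). CCL5 had 36.8 and 41.4 CPM with SIK3 siRNA at 4 h and 13.96 and 19.4 CPM in CLM, against 341 and 320.4 CPM with control siRNA at 4 h and 30.9 and 35.98 CPM in CLM (interaction log2 -2.06). For ICAM1 the interaction was -1.16 and for CCL20 -1.50. SELE, with 225 and 174 CPM at 4 h with control siRNA, had an interaction of -2.57, whose adjusted p was 0.0032 and 0.081 without SIK3 CLM replicate 1. BIRC3 rose 2.59-fold with SIK3 siRNA and 2.54-fold with control siRNA, and its interaction of 0.03 missed the threshold (adjusted p 0.839).

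Antigen presentation leaned the same way: 13 of 20 genes had a negative interaction and none a positive one, and 9 of 20 rose with SIK3 siRNA, against 19 of 20 with control siRNA. HLA-B had an interaction of -1.28 (adjusted p 4.09e-08). Of the 31 interferon-stimulated genes 13 had a negative interaction and 1 a positive one, which was IFIT2 (0.59). With control siRNA 18 of them rose and 1 fell. MX1 rose with control siRNA, to 33.2 and 28.3 CPM at 4 h, against 13.1 and 10.5 CPM in CLM, and its interaction was -1.83. Its CLM level was higher with SIK3 siRNA, at 95.1 and 99.9 CPM.

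In the other direction, 26 of 28 mitosis genes and 17 of 26 replication genes had a positive interaction and none a negative one. With control siRNA 1 mitosis gene rose and 11 fell at 4 h. The interaction was 1.02 for ANLN, 1.23 for HMMR and 0.84 for RRM2.

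**Figure D4:**
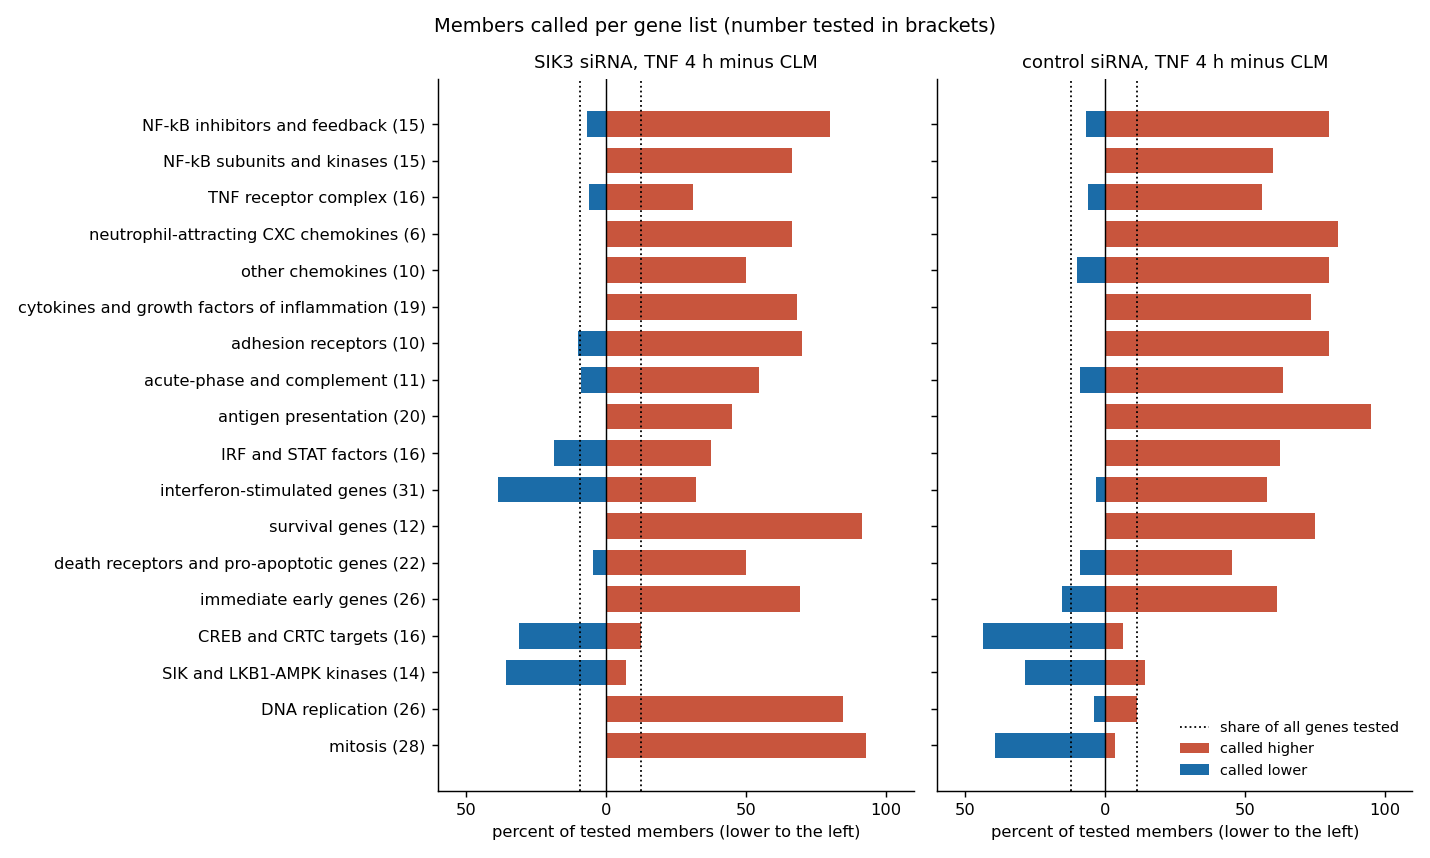
Percent of the tested members of 18 gene lists called higher (right of 0) or lower (left of 0) at 4 h against CLM, with SIK3 siRNA (left panel) and control siRNA (right panel). Dotted lines mark the shares over all genes tested. With SIK3 siRNA 26 of 28 mitosis genes rose, against 1 with control siRNA, and 9 of 20 antigen presentation genes rose, against 19 with control siRNA.

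**Figure D5:**
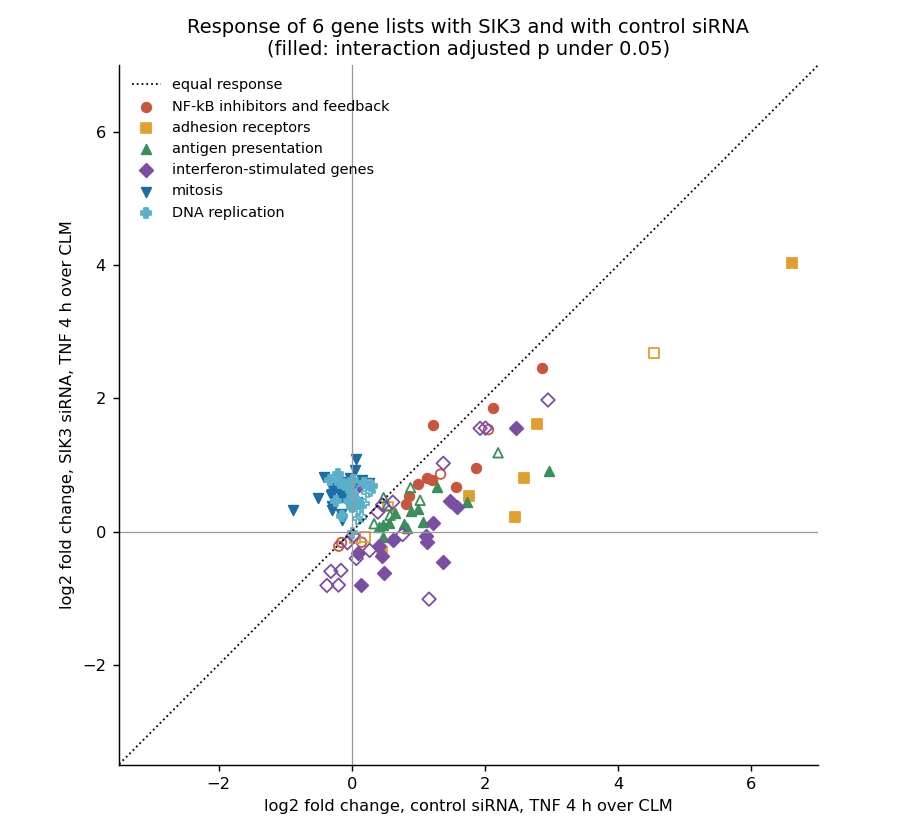
Log2 fold change from CLM to 4 h with SIK3 siRNA (y axis) and control siRNA (x axis) for the tested members of 6 gene lists, filled where the interaction has an adjusted p under 0.05. The dotted line marks equal responses. Filled antigen presentation and adhesion genes lie below the line and filled mitosis and replication genes above it.

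The 6 most positive interactions among protein-coding genes with a mean of at least 5 CPM in some condition were ID2, CSKMT, ID1, BDNF, FOS and PDK4. ID2 rose 6.61-fold with SIK3 siRNA and fell with control siRNA, to 4.55 and 3.72 CPM at 4 h, against 8.30 and 6.01 CPM in CLM (interaction 3.52, adjusted p 1.7e-08). ID1, its relative, had 23.5 and 20.4 CPM at 4 h, against 30.6 and 19.5 CPM in CLM with SIK3 siRNA, and missed the threshold there. With control siRNA ID1 fell to 25.9 and 15.1 CPM at 4 h, against 119.7 and 74.3 CPM in CLM (interaction 2.08). FOS had 20.6 and 20.2 CPM at 4 h, against 18.0 and 18.9 CPM in CLM with SIK3 siRNA, and 11.2 and 10.99 CPM at 4 h, against 38.9 and 38.9 CPM in CLM with control siRNA (interaction 1.94). CSKMT had an interaction of 2.61, BDNF, a neurotrophin, of 2.01 and PDK4, a kinase that inhibits pyruvate dehydrogenase, of 1.93.

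The 6 most negative were SYT2, IFNL3, IFNL1, KIRREL2, ELOVL7 and CFAP46, from -3.74 to -2.86. The type III interferon gene IFNL1 had 3.58 and 3.36 CPM at 4 h, against 1.88 and 3.20 CPM in CLM with SIK3 siRNA, and 24.3 and 25.8 CPM at 4 h, against 1.69 and 3.04 CPM in CLM with control siRNA (interaction -2.95, adjusted p 1.1e-06). IFNL3, a close copy of other lambda interferon genes, had 0.797 and 1.10 CPM with SIK3 siRNA at 4 h, against 9.35 and 5.61 CPM with control siRNA at 4 h (interaction -3.39). ELOVL7, which elongates fatty acids, rose 2.42-fold with SIK3 siRNA, to 39.6 and 33.6 CPM at 4 h. With control siRNA it had 104.8 and 89.2 CPM at 4 h (interaction -2.90). The interactions of IFNL3 and ELOVL7 also take in their CLM levels, which are not given here, so the 4 h levels alone do not show their size. SYT2 lost the interaction call without SIK3 CLM replicate 2 (adjusted p 0.13) and rested on levels under 1 CPM with SIK3 siRNA.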

How the data were processed

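RNA from PANC-1 cells was sequenced in 12 libraries, extracted with the RNeasy kit and DNase I and prepared with the ScriptSeq kit, per the labels' protocols. The values deposited by the authors are whole-number read counts per gene, 1 library per file, headed by 4 lines that sum the reads assigned to no gene; these stayed out of library sizes and tests. STAR 2.05b, edgeR and GRCh38 are named in the submitters' processing notes, and the strand setting of the counting is not given in the sources used here. Of 60669 identifiers, 56927 had a symbol in the reference tables (GENCODE 29 and a symbol table).

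Counts were scaled by TMM, filtered with filterByExpr at a minimum count of 10, and tested in edgeR 4.0.16 (quasi-likelihood, Benjamini-Hochberg adjustment, threshold 0.05; R 4.3.3) over all 12 libraries with 6 conditions and the replicate letter as a block. Same-lettered libraries of different conditions deviated together from their condition means in all 15 pairs of conditions (correlation 0.350 to 0.530 across genes, 0.393 for SIK3 siRNA at 4 h with CLM), so the letters pair the libraries. The design text calls the replicates biological. Within a condition they differed by more than sampling noise (chi-square of 16.0 to 32.8 per degree of freedom). That difference includes the shift shared by the letters, so it does not show whether the replicates are biological. The letters also differed in reads mapping to several places, with 4.94% to 17.6% in B and 10.2% to 45.3% in C. With 2 libraries a condition, p-values measure only the spread between these samples. Depth was 13535825 to 22699756 gene counts per library; counting intervals cover counting error only.

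The interaction term compares the 4 h response between the siRNAs. CPM in the text are counts scaled to library totals with TMM factors, and folds and levels are not corrected for gene length. Named genes are the 15 largest rises and 15 largest falls among protein-coding genes with a mean of at least 2 CPM in the higher condition and no overlap of the libraries, up to 4 called genes per list by smallest p, SIK1, SIK2 and SIK3, and the 6 largest interactions in each direction at a mean of at least 5 CPM in at least 1 condition; others are said to be named after their values were seen. The members and the 41 gene lists (595 genes) were chosen with earlier results of these data known. Promoters came from RefSeq, in which 105 of the 129 genes named had a window. Some genes are not reported here. Alternatives were DESeq2 1.42.0, limma 3.58.1 (voom), other scalings, filters and thresholds, no block, the 4 libraries alone, conditions from the titles and each library left out. The fits were tested on simulated counts.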

Additional observations from a re-analysis of the deposited data

Results flagged for a closer look

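The response at 4 h differed between SIK3 siRNA and control siRNA for the 24 genes listed below, whose interaction in the edgeR fit passed the threshold. They were picked for the text and are not all the named genes that passed. Of the mitosis genes only ANLN and HMMR are listed, while 26 of 28 had a positive interaction. Of these differences, 11 were positive and 13 negative. The values below are the log2 fold change with SIK3 siRNA minus that with control siRNA. Among TNF and interferon targets they were -1.04 for TRAF1, -2.06 for CCL5, -1.16 for ICAM1, -1.50 for CCL20, -2.57 for SELE, -1.28 for HLA-B and -1.83 for MX1, with 0.38 for NFKBIZ and 0.59 for IFIT2 in the other direction. Cell cycle genes had 1.02 for ANLN, 1.23 for HMMR and 0.84 for RRM2. The most positive values were 3.52 for ID2, 2.61 for CSKMT, 2.08 for ID1, 2.01 for BDNF, 1.94 for FOS and 1.93 for PDK4. The most negative were -3.74 for SYT2, -3.39 for IFNL3, -3.02 for KIRREL2, -2.95 for IFNL1, -2.90 for ELOVL7 and -2.86 for CFAP46. NFKBIZ, SELE and SYT2 lost the interaction call when certain single libraries were left out.

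Reads in no annotated gene, which enter no comparison of genes, made up 16.5% of all reads in SIK3 siRNA 4 h library B and 17.1% in library C, above the 8.35% to 10.5% of the other 10 libraries. Their part in the differences above was not tested.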

How the results depend on the processing

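With conditions from the titles, SIK3 siRNA at 4 h is set against libraries whose file names read Scr1 and 30min. The siRNA and the time then both differ by file name. In that setting 10302 genes were called, and 47 of the 129 genes named changed direction. The 47 include genes that had missed the threshold by file name, among them SIK2, SIK3, AURKA and CENPA. Under the titles it was missed by BDNF, GRHL3, H4C1, HGF, IRF1, MAFF, NRROS and RND1 (edgeR adjusted p 0.068 to 0.858). In that contrast the log2 fold changes were positive, with 1.38 for ADAMTS1, 0.84 for AREG, 0.043 for BDNF, 0.44 for CD55, 3.002 for DIO2, 2.40 for FGFBP1, 0.28 for GRHL3, 0.27 for HGF, 2.58 for IFI6, 2.77 for MX1, 0.54 for NRROS, 1.10 for OAS1, 2.047 for SCG2, 1.55 for SIK1, 0.36 for SIK2, 2.98 for SLC2A10, 3.95 for SNAI2, 0.32 for STAT2 and 0.22 for STAT6. They were negative, with -1.43 for ANLN, -0.22 for ATF3, -1.71 for AURKA, -1.59 for CENPA, -2.90 for CEP55, -0.66 for CXCL2, -1.67 for CXCL3, -1.90 for FOS, -0.44 for H4C1, -3.03 for HMMR, -1.08 for IFNL1, -0.081 for IRF1, -0.68 for JUNB, -0.52 for LTB, -0.064 for MAFF, -1.08 for MCM7, -0.48 for MEF2A, -0.18 for NFKBIA, -1.36 for NFKBIZ, -0.36 for RND1, -1.55 for RRM2, -0.52 for SELE, -1.43 for SIK3, -0.21 for SPRY4, -1.05 for TNF, -0.43 for TNFAIP3, -0.59 for VIM and -1.48 for ZFP36. The response with control siRNA then held 9648 calls and the interaction 3374, and 14 of 24 interactions turned, with -2.83 for NFKBIZ, 3.41 for TRAF1, 1.80 for CCL5, 2.18 for ICAM1, 1.36 for CCL20, 0.69 for SELE, 0.86 for HLA-B, -0.53 for BDNF, -2.67 for FOS, -1.65 for PDK4, 1.78 for SYT2, 0.30 for KIRREL2, 2.38 for ELOVL7 and 1.54 for CFAP46. The turned interactions of SELE, BDNF, SYT2 and KIRREL2 missed the threshold under the titles (edgeR adjusted p 0.18 to 0.588).

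Without the replicate letter the calls were 738 for SIK3 siRNA, 1501 for control siRNA and 261 for the interaction; 31 of the 129 genes and 5 of the 24 interactions lost the call, and in no gene named did the direction change. The letters pair the libraries, and the fit without them holds that pairing in its residual spread. For SIK3 siRNA that fit called 610 genes higher and 128 lower of the 16695 tested. These numbers, and not the shares of the main fit, are the background for its list counts. Among the lists, the higher calls without the block were 8 of 26 immediate early genes, 7 of 19 cytokines, 5 of 15 NF-κB subunits and kinases, 5 of 22 death receptors and proapoptotic genes, 2 of 20 antigen presentation genes and 6 of 31 interferon-stimulated genes, 3 of 10 adhesion receptors, 1 of 17 MAPK phosphatases and ERK feedback genes, 2 of 10 mRNA decay factors, 1 of 10 EGF family genes, 2 of 14 TGF-β and BMP feedback genes, 2 of 13 Hippo and YAP targets, and none of 6 noncoding RNAs, 13 mitochondrial mRNAs, 16 CREB and CRTC genes or 7 class IIa deacetylase and MEF2 genes. The lower calls without it were 2 of the 31 interferon-stimulated genes, 1 of 15 matrix genes, none of 16 IRF, STAT and SOCS genes or 16 p53 targets, 2 of 14 kinases and 3 of 16 CREB and CRTC genes. At an adjusted p under 0.01 the counts were 2195 for SIK3 siRNA and 1117 for the interaction. Leaving out each library in turn gave 2010 to 3054 calls for SIK3 siRNA, 2618 to 3155 for control siRNA and 1254 to 1900 for the interaction. Of the 119 genes called, 13 lost the call without some library, as did 3 of the 24 interactions. With DESeq2 size factors the interaction split was 895 more positive and 1135 more negative. DESeq2 called 2677 genes for SIK3 siRNA and limma voom 3702. A count of 3 reads corresponded to 0.132 to 0.222 CPM, which limits what could be seen of low genes.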

Other observations

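Groups of genes not described above moved in part. Of 10 mRNA decay factors tested with SIK3 siRNA, 4 rose and 1 fell at 4 h, against the 12.5% higher and 9.36% lower over all genes tested. ZC3H12A, which encodes the endonuclease Regnase-1 that degrades cytokine mRNAs, had 18.1 and 23.2 CPM at 4 h, against 5.81 and 8.77 CPM in CLM (log2 1.53, edgeR adjusted p 7.6e-09). ZFP36 (tristetraprolin, which binds AU-rich elements) had 384 and 1000.2 CPM at 4 h, against 221 and 595 CPM in CLM, so each letter rose while the ranges of the conditions overlapped. Its relative ZFP36L1, named after its value was seen, was the gene that fell, to 15.1 and 35.1 CPM at 4 h, against 20.9 and 56.0 CPM in CLM, and without 4 h replicate 2 its adjusted p was 0.130. Of 10 genes of the EGF family, 3 rose and 1 fell. The ligand gene HBEGF had 99.1 and 96.4 CPM at 4 h, against 53.7 and 51.8 CPM in CLM, and the ligand gene AREG (amphiregulin) had 19.8 and 15.6 CPM at 4 h, against 31.1 and 26.4 CPM in CLM.

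Of 14 TGF-β and BMP feedback genes, 4 rose and none fell. Beside ID2 they included ID3, with 48.9 and 40.1 CPM at 4 h, against 22.5 and 17.9 CPM in CLM, and the pseudoreceptor gene BAMBI, with 4.18 and 4.91 CPM at 4 h, against 2.13 and 2.24 CPM in CLM. Of 6 abundant noncoding RNAs, 4 rose and 1 fell. NEAT1, the scaffold RNA of paraspeckles, had 575 and 648 CPM at 4 h, against 247 and 320.4 CPM in CLM, and GAS5, a host of small nucleolar RNAs, had 258 and 218 CPM at 4 h, against 167 and 129 CPM in CLM. Of 13 mitochondrially encoded mRNAs, 5 rose and none fell. Without 4 h replicate 1, none of them rose and 2 fell. Hippo and YAP targets rose in 7 of 13 cases and fell in 1, and the rises numbered 4 without 4 h replicate 1.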
